A study of Mus musculus with 25 samples.

Results

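The genes described here are 4 Notch receptors (Notch1, Notch2, Notch3 and Notch4), 3 of their ligands (Jag1, Jag2 and Dll4) and the 3 Hey genes (Hey1, Hey2 and Heyl). They were chosen by name from the 20870 genes of the table, and all 10 were found, passed the filter on low values and had reads in every library. Transcript levels came from mouse heart tissue collected by laser capture, with the sinoatrial node (SAN, the pacemaker region) or the right atrium (RA, the working muscle beside it) outlined by eye on frozen sections. The first set held SAN and RA from Hcn4-GFP mice before birth (E14.5, embryonic day 14.5) and after it (P4 and P14, counted in postnatal days), with 3 libraries a group. The second set held E12.5 SAN from embryos given tamoxifen at E10.5. In it, 4 libraries were Hcn4-GFP;Isl1 fl/fl without Cre (CreNeg) and 3 carried CAG-Cre/Esr1 as well (CrePos), a tamoxifen-inducible Cre that runs from a broadly active promoter rather than a node-specific one. All 25 libraries carried the Hcn4-GFP allele on a mixed strain background. No label ties a library to an animal, so a p-value here measures the spread among libraries of a group, which may be partly technical.

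Notch receptors are activated by ligands on a neighbouring cell. Binding lets ADAM10 and then the gamma-secretase complex cut the receptor, and the freed intracellular part joins RBPJ and Mastermind proteins on DNA to switch on targets, among them the repressors of the Hes and Hey families. In the heart, Notch1 and Notch4 are best known in endocardium and vessel endothelium, Notch3 in the smooth muscle and pericytes around vessels, and Hey genes in endocardium, arteries and chamber muscle. In bulk tissue, fewer cells of a type and less RNA per cell cannot be told apart.

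RefSeq promoter entries (GRCm38.p6) matched 8 of the 10 genes, without Hey1 and Heyl. They were searched for the 7 letters GTGGGAA, the core that RBPJ binds, on both strands of the 250 bases before each start. The letters were found in 1 of the 8, Hey2, 207 bases before its start on the opposite strand. Of 32851 mouse promoters searched the same way, 1779 (5.42%) held them. The first 220 of those bases are shown for the genes with a difference that passed the test below and no annotated exon in that stretch, on the gene's own strand. Capitals mark the match, read as its reverse complement. The Hey2 stretch is chr10:30842814-30843033, the Notch3 stretch chr17:32166921-32167140 and the Notch1 stretch chr2:26503853-26504072, all on the minus strand. The Notch1 stretch lies inside the longer GENCODE model of that gene. The RefSeq start of Notch3 lies outside its GENCODE model, which reaches base 32166852. A stretch just after that start matched no GENCODE transcript of Notch3.
Hey2: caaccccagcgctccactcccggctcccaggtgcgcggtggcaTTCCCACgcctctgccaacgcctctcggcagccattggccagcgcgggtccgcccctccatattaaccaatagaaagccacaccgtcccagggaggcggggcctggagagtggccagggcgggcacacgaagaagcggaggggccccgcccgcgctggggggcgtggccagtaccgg
Notch3: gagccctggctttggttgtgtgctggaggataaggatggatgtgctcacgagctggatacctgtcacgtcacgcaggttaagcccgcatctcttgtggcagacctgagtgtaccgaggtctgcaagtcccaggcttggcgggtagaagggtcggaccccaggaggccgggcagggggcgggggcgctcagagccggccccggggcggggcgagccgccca
Notch1: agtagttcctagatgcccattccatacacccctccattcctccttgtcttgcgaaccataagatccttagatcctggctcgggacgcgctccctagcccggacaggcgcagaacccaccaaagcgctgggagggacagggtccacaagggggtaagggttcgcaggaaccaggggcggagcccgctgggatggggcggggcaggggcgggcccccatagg

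In GENCODE M21 (GRCm38), Notch1 spans bases 26457903 to 26516663 of chromosome 2, and Notch3 bases 32120820 to 32166852 of chromosome 17. Hey1 spans bases 8663359 to 8667256 of chromosome 3, Hey2 bases 30832359 to 30842801 of chromosome 10 and Heyl bases 123233556 to 123249875 of chromosome 4. Jag1 spans bases 137081456 to 137116644 of chromosome 2. Values cover whole genes. The library kit is not stated to keep strand. Exons of opposite-strand genes overlap those of Notch1 (1068 bases of 0610009E02Rik and 414 of Gm13568), Notch3 (488 bases of Gm17276) and Dll4 (214 bases of Gm14207), whose reads cannot be told apart. On the same strand, exons of Gm42820 overlap 541 exon bases of Notch2, whose reads cannot be told apart either.

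The 18 libraries of the first set held 5101711 to 17997497 recovered reads each, and the 7 of the second 45298052 to 88020475. Levels are in CPM, the deposited values divided by 1 constant for all libraries so that they read as counts per 1000000, where 3 reads were worth at most 0.646 CPM in the first set and 0.053 in the second. SAN markers (6 genes) summed to 2672 to 6721 CPM in the 9 SAN libraries and 64.2 to 127 in the 9 RA libraries, as labelled. Some libraries stood apart from their group. SAN E14.5 replicate 1 held 829 CPM of the ventricular gene Myl2, against at most 24.5 in the other 17 libraries. SAN P4 replicate 3 had a smooth muscle and pericyte sum (10 genes) of 3454 CPM, against 952 and 998 in the other SAN P4 libraries. CrePos replicate 2, which its title marks as an outlier, held 1032 CPM of Myl2 and stayed out of the comparisons.

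Over the 3 stages, Notch1 and Hey1 were lower in SAN than in RA, and limma called no member higher. These 2 of 10 members called stand beside 11.5% of the 17568 genes tested, with 5.36% called lower. DESeq2 called 4, adding Hey2 (1.55, adjusted p 0.021) and Heyl (0.74, adjusted p 0.0238) as higher in SAN, and so did limma without SAN P4 replicate 1 (1.56, adjusted p 0.0103, and 0.75, adjusted p 0.0264). Hey2 was also called higher without RA P14 replicate 1 (1.46, adjusted p 0.0417). The median SAN minus RA difference on the log2(CPM + 1) scale was -0.10 over the members and -0.01 over all genes. A call here is a Benjamini-Hochberg adjusted p under 0.05 from limma over all genes tested. The 2 genes are the endocardial receptor and a Hey repressor, and the libraries behind them follow by stage.

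Notch1 was the receptor that set the tissues apart. At E14.5 it stood at 40.8, 50.9 and 83.6 CPM in SAN and at 131, 152 and 92.6 in RA. At P4 it stood at 42.5, 71.7 and 119 CPM in SAN and at 156, 156 and 172 in RA. At P14 it stood at 96.7, 66.2 and 69.2 CPM in SAN and at 129, 65.9 and 132 in RA. Every RA library was above every SAN library at E14.5 and at P4, while RA replicate 2 at P14 lay as low as the SAN libraries. The share of all genes whose libraries separate the tissues in this way was not counted, here or for the genes below. Over the 3 stages the SAN minus RA difference was -0.91 ± 0.19 (log2, SE, adjusted p 0.0022), and the call held under all 27 alternatives tried. At P4 the difference was -1.16 ± 0.33 (adjusted p 0.0382), where 2 of 10 members were called, both lower, beside 5.96% of all genes (2.99% lower). That call was lost under 9 of 28 alternatives, among them edgeR (adjusted p 0.084) and leaving out any single P4 library other than SAN replicate 3 (adjusted p 0.0789 to 0.213). At E14.5 the difference was -1.12 ± 0.33 with an adjusted p of 0.0505, and it passed under 10 of 28 alternatives. No member was called at E14.5, where 5.33% of genes were, 3 of 10 had an unadjusted p under 0.05, edgeR called 0 and DESeq2 called 2. At P14 the Notch1 difference was -0.44 ± 0.33 (adjusted p 0.59).

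Many markers of endothelium and endocardium were lower in SAN, as Notch1 was. The 15 genes of that list summed to 640 to 1529 CPM in the SAN libraries and 2090 to 3050 in the RA libraries, with none at 0 in any group. Npr3 alone ran from 7.5 to 91.7 CPM in SAN and from 411 to 667 in RA. Over the 3 stages 9 of the 15 were called lower in SAN and 1 higher. By stage 10 were called lower at E14.5, 7 at P4 (1 higher) and 4 at P14. From E14.5 to P14 in SAN, 5 of the 15 were called higher and 0 lower, while Notch1 was not called (0.44 ± 0.33, adjusted p 0.37). Of the 7 arterial endothelial markers, 5 were called higher in SAN and 1 lower. The gene most like Notch1 over the 18 libraries was Tek, an angiopoietin receptor of that endothelial list (Pearson r 0.89 of log2 levels among 12249 genes compared), followed by Agap1 (0.87) and Hmcn1 (0.85). Correlations of this kind share libraries and depth and are descriptions. The part of endothelial content in the Notch1 difference was not tested.

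**Figure D1:**
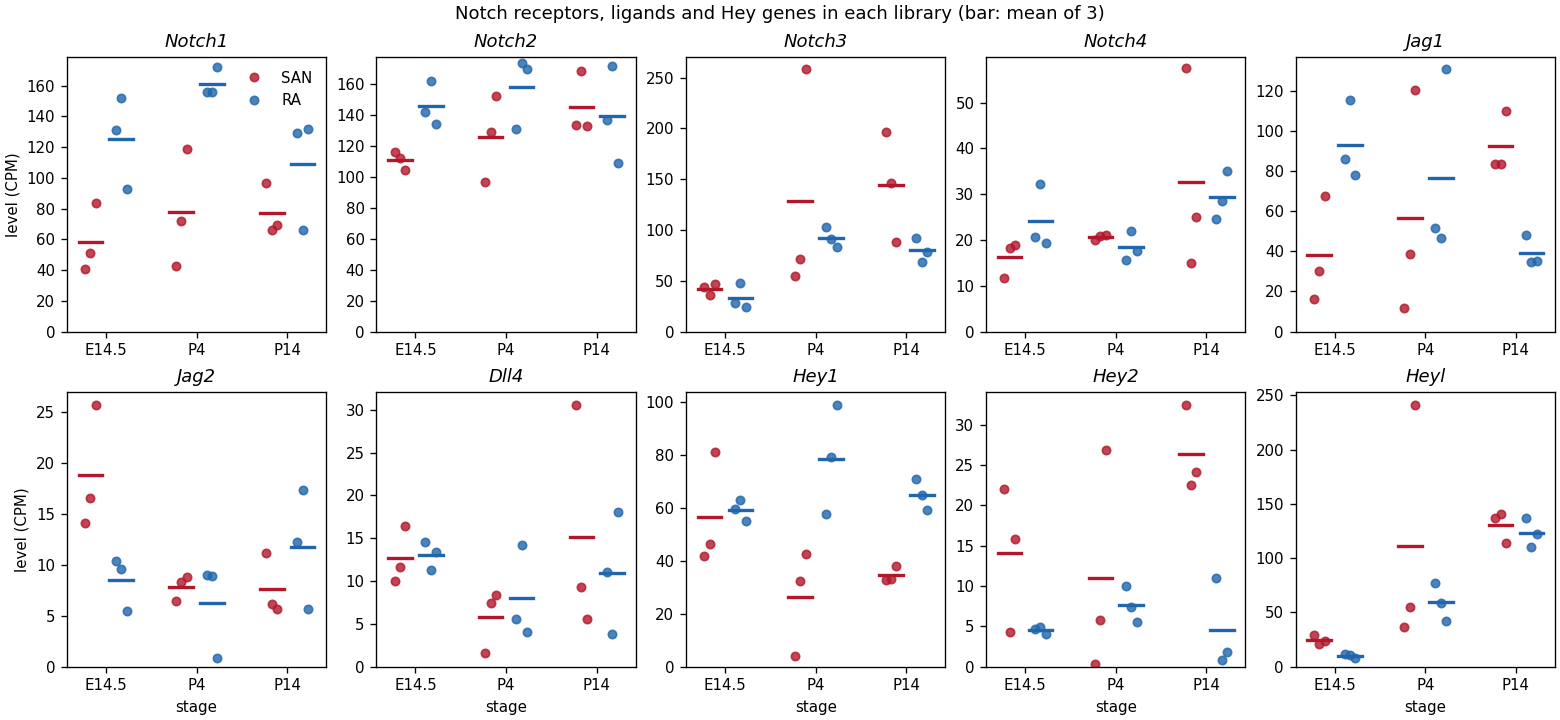
Level of each of the 10 genes in CPM (vertical axis, from 0) in every library at E14.5, P4 and P14 (horizontal axis), SAN in red and RA in blue, with a bar at the mean of 3 libraries. Notch1 lies higher in RA at E14.5 and P4, Heyl is higher at P14 than at E14.5 in both tissues, and SAN P4 replicate 3 stands high for Notch3, Jag1, Hey2 and Heyl.

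**Figure D2:**
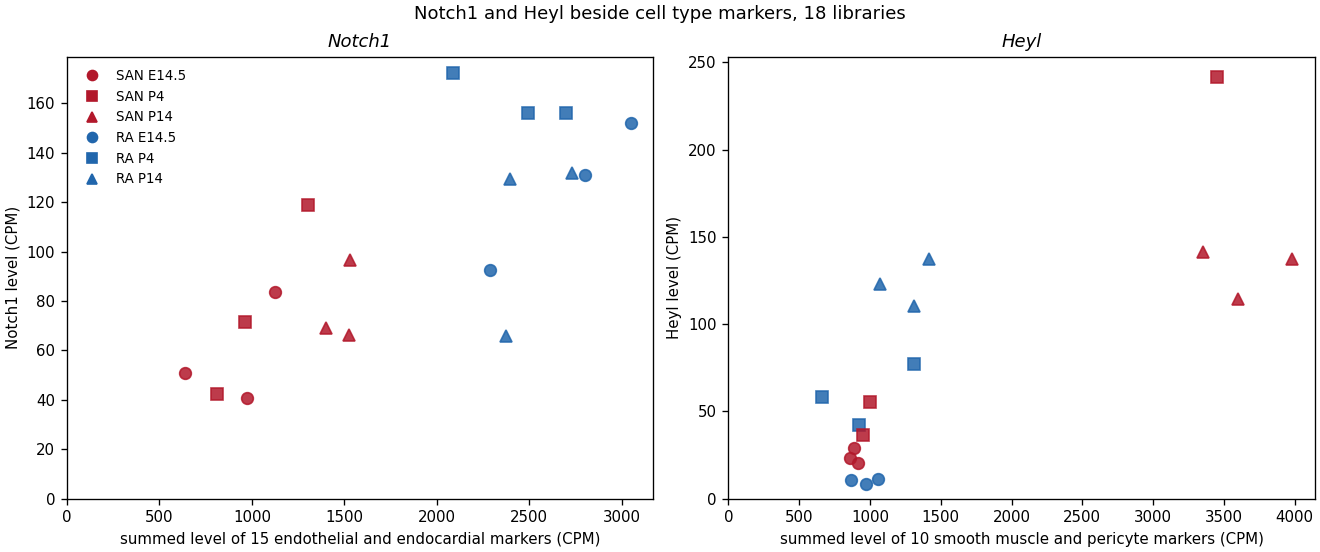
Notch1 level against the summed level of 15 endothelial and endocardial markers (left) and Heyl level against that of 10 smooth muscle and pericyte markers (right), both axes in CPM, with 1 point per library coloured by tissue and shaped by stage. RA libraries lie to the right of all SAN libraries on the left panel, and on the right panel SAN P4 replicate 3 lies with the SAN P14 libraries along the horizontal axis.

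Notch3, the receptor of vessel smooth muscle and pericytes, rose with age in both tissues. In SAN it stood at 44.1, 35.8 and 46.3 CPM at E14.5, at 54.8, 71.5 and 259 at P4, and at 197, 146 and 88.3 at P14. In RA it stood at 27.6, 47.5 and 24.1 CPM at E14.5, at 103, 90.9 and 83.5 at P4, and at 92.6, 68.7 and 78.1 at P14. All P14 libraries were above all E14.5 libraries in each tissue. From E14.5 to P14 the difference in SAN was 1.68 ± 0.40 (adjusted p 0.0035) and held under all 28 alternatives. There 2 of 10 members were called, both higher, beside 24.3% of genes called and 9.74% called higher. The member median was 0.61, against -0.18 over all genes.

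In RA, Notch3 rose by 1.30 ± 0.40 from E14.5 to P14 (adjusted p 0.0225) and by 1.51 ± 0.40 from E14.5 to P4 (adjusted p 0.0225). In each of these contrasts 2 of 10 members were called, both higher, beside 22.7% of genes called (5.99% higher) to P14 and 6.79% (3.23% higher) to P4. The P14 call was lost without RA E14.5 replicate 1 (adjusted p 0.0768) or 3 (0.0934), without RA P14 replicate 1 (0.0781) or 3 (0.0513), and with libraries scaled to equal sarcomere levels (0.0803). The P4 call was lost without RA E14.5 replicate 1 (adjusted p 0.0896) or 3 (0.112) and without any P4 library of RA (0.0538 to 0.0677). In SAN the E14.5 to P4 difference was 1.25 ± 0.40 (adjusted p 0.0575), and 0.57 without SAN P4 replicate 3. It passed under 5 of 28 alternatives, which were edgeR (1.66, adjusted p 0.0158), DESeq2 (1.67, adjusted p 0.0009), library weights (1.19, adjusted p 0.0422), equal sarcomere levels (1.32, adjusted p 0.0492) and leaving out SAN P4 replicate 1 (1.68, adjusted p 0.0134). The difference between tissues in the Notch3 change was 0.39 ± 0.57 (adjusted p 0.82).

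Notch2, a widely expressed receptor, ran from 96.3 to 173 CPM across the first set, and the 6 groups had means from 111 (SAN E14.5) to 158 (RA P4). Neighbouring groups in that order overlapped throughout, while all SAN E14.5 libraries were below all RA E14.5 and all SAN P14 libraries. None of its 11 contrasts in the first set was called by limma, but its SAN difference from E14.5 to P14 (0.38 ± 0.21, adjusted p 0.203) was called with edgeR (0.57, adjusted p 0.0477) and DESeq2 (0.60, adjusted p 0.0267). Notch4, a receptor of endothelium, ran from 11.8 to 57.7 CPM, with its highest value in SAN P14 replicate 1. Its group means ran from 16.3 (SAN E14.5) to 32.6 (SAN P14), again with overlap between every pair of neighbours and no call by limma. Its SAN difference from E14.5 to P14 (0.78 ± 0.38, adjusted p 0.151) was called with edgeR (1.22, adjusted p 0.034), DESeq2 (1.25, adjusted p 0.0117) and without SAN P14 replicate 2 (1.21, adjusted p 0.0264).

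Per kilobase of protein-coding transcripts, the make-up of the receptors differed by tissue and stage. At E14.5, Notch2 made up 43.6% ± 6.57 (SD, n = 3) of the summed receptor level in SAN and 40.3% ± 4.17 in RA. Notch1 made up 24.7% ± 6.74 in SAN and 37.7% ± 3.24 in RA at that stage. At P14 Notch3 had the highest mean share in SAN, at 39.1% ± 6.47 against 21.5% ± 2.61 at E14.5. That order was not stable. By reads with no length Notch2 led in SAN at P14 (37.3% against 35.2% for Notch3), and in SAN P14 replicate 3 it led per kilobase (36.3% against 31.7%). At P4 the Notch3 share in SAN was 36.2% ± 13.4, with 51.6% in replicate 3. In RA its share was 25.4% ± 1.99 at P14 and 11.6% ± 2.12 at E14.5. These shares are descriptions of the libraries and were not tested.

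**Figure D3:**
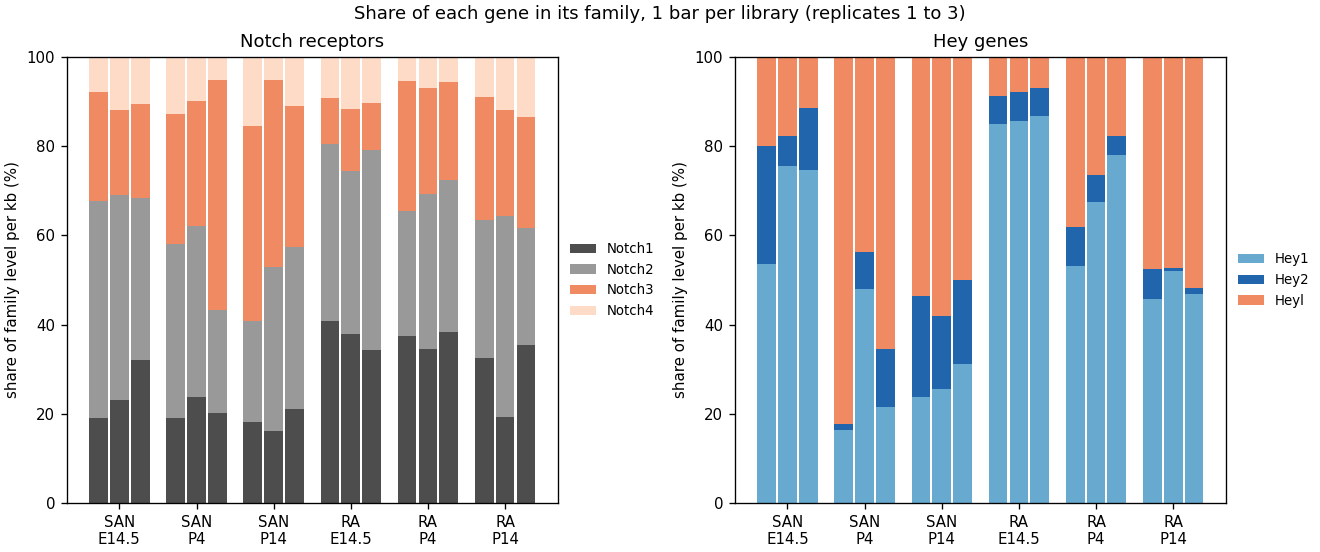
Share of each gene in the summed level per kilobase of its family (vertical axis, %), with 1 stacked bar per library, for the 4 Notch receptors (left) and the 3 Hey genes (right), by tissue and stage. The Notch3 share in SAN is 21.5% on average at E14.5 and 39.1% at P14, and the Heyl share is 16.4% and 53.9%.

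Jag1, a ligand of endothelium and vessel smooth muscle, had the widest contrast between tissues in its course, without passing the test. In SAN it stood at 16.3, 30.1 and 67.7 CPM at E14.5, at 11.8, 38.4 and 120 at P4, and at 83.6, 83.4 and 110 at P14. In RA it stood at 85.9, 115 and 77.8 CPM at E14.5, at 51.4, 46.6 and 131 at P4, and at 48.0, 34.6 and 35.0 at P14. All SAN P14 libraries were above all SAN E14.5 libraries, and all RA P14 libraries were below all RA E14.5 libraries. That pattern was seen in 1.14% of genes tested, and opposite separation in either direction in 1.46%.

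From E14.5 to P14 the Jag1 difference was 1.47 ± 0.56 in SAN (adjusted p 0.0593) and -1.22 ± 0.56 in RA (adjusted p 0.122). The SAN difference passed under 8 of 28 alternatives, among them a replicate block (adjusted p 0.0279), but not with edgeR or DESeq2. It also passed without SAN P4 replicate 1 (adjusted p 0.0172) or 3 (0.0172). That omission left the difference at 1.47 and moved only the estimated spread and the genes tested. The RA difference passed under 5 of 28, again not with edgeR or DESeq2. The difference between those changes was 2.69 ± 0.79 (adjusted p 0.0728), and it passed under 7 of 28 alternatives (adjusted p 0.0052 to 0.208 over all of them). Among these were the omission of SAN E14.5 replicate 3 (3.21) and of SAN P4 replicate 1 or 3, which left it at 2.69. No member was called for a tissue difference in change, where 2.27% of genes were, 1 of 10 had an unadjusted p under 0.05, and edgeR and DESeq2 both called 0. The SAN minus RA difference in Jag1 at E14.5 was -1.47 ± 0.56 (adjusted p 0.153), and that at P14 was 1.22 ± 0.56 (adjusted p 0.286). The libraries of the 2 tissues did not overlap at either stage. At E14.5 this was not particular to Jag1, as Notch1, Notch2, Notch4, Jag2 and Heyl did not overlap between the tissues either. The share of all genes that separate the tissues so was not counted, so these separations are descriptions only.

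Jag2 and Dll4, the other ligands, were low. Jag2 stood at 14.098, 16.6 and 25.7 CPM in SAN at E14.5, above all SAN libraries at P4 (6.4 to 8.8) and P14 (5.7 to 11.1). The Jag2 change in SAN from E14.5 to P14 was -1.21 ± 0.57 (adjusted p 0.13). In RA, Jag2 ran from 0.86 to 17.3 CPM, and the 3 stages overlapped. Dll4, the ligand of arterial and sprouting endothelium, ran from 1.6 to 30.6 CPM, with both extremes in SAN, and no contrast was called. Per kilobase Jag1 made up most of the ligand level in every group of the first set but SAN E14.5, where its mean share was 45.6% ± 10.6 (n = 3). In the other 5 groups of that set its mean share ran from 57.0% (RA P14) to 76.2% (RA P4).

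Hey1, a repressor known in endothelium and atrial muscle, was lower in SAN than in RA at P4. At E14.5 it stood at 42.0, 46.5 and 81.2 CPM in SAN and at 59.5, 63.0 and 55.0 in RA. At P4 it stood at 3.9, 32.3 and 42.5 CPM in SAN and at 57.7, 79.1 and 99.0 in RA. At P14 it stood at 32.6, 33.1 and 37.9 CPM in SAN and at 70.8, 65.0 and 59.2 in RA. The tissues overlapped at E14.5 and did not overlap at P4 or P14. At P4 Notch1 did not overlap between them either, nor did Jag1 and Hey2 at P14. These separations too are descriptions, with no share of all genes counted beside them.

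The SAN minus RA difference in Hey1 at P4 was -2.02 ± 0.50 (adjusted p 0.0148). It was lost with edgeR (adjusted p 0.0729), with only the 2 groups fitted (0.164) and without RA P4 replicate 3 (0.078). SAN P4 replicate 1, at 3.9 CPM, was also the lowest of the 18 libraries for Notch2, Jag1, Dll4 and Hey2, and without it the Hey1 difference was -1.03 and still passed. Over the 3 stages the difference was -1.01 ± 0.29 (adjusted p 0.0235), and the call was lost without SAN E14.5 replicate 1 (-0.95, adjusted p 0.0506). At P14 it was -0.89 ± 0.50 (adjusted p 0.427). The genes most like Hey1 were Csgalnact1 (r 0.90), Csrp2 (0.89) and Bmx (0.88), the last an arterial endothelial marker.

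Hey2, the repressor of ventricular compact muscle and vessel smooth muscle, was higher in SAN at P14. There it stood at 32.4, 22.5 and 24.1 CPM in SAN and at 10.95, 0.80 and 1.8 in RA, with no overlap. The difference was 2.79 ± 0.80 (adjusted p 0.0492), the only member called of 10 at P14, beside 4.55% of genes (3.21% higher). The call was lost under 21 of 28 alternatives, among them edgeR (adjusted p 0.233), DESeq2 (0.0809) and the omission of any P14 library other than RA replicate 1 (0.0954 to 0.253). At E14.5 Hey2 stood at 22.0, 4.3 and 15.8 CPM in SAN, the highest being replicate 1 with its 829 CPM of Myl2, and at 4.6, 5.0 and 4.1 in RA. At P4 it stood at 0.37, 5.8 and 26.8 CPM in SAN, the highest being replicate 3, and at 9.97, 7.4 and 5.6 in RA. The smooth muscle and pericyte sum was 3350 to 3977 CPM in SAN at P14 and 1074 to 1415 in RA, with 4 of 10 of those markers called higher in SAN. Acta2, a gene of that list, was among the 3 genes most like Hey2 (r 0.77, after Gm6206 at 0.80 and Fstl1 at 0.77). Other lists were higher in SAN at P14 too, with 4 of 8 fibroblast, 3 of 4 glial, 2 of 4 macrophage and 1 of 4 tested ventricular markers called. The ventricular marker sum was 216 to 400 CPM in SAN and 108 to 147 in RA. The endothelial and endocardial, cardiomyocyte and right atrium lists held only calls in the other direction. The part of smooth muscle or other cell content in the Hey2 difference was not tested.

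Heyl, the Hey repressor best known in vascular smooth muscle, showed the largest rise of the 10 genes. In SAN it stood at 29.2, 20.53 and 23.4 CPM at E14.5, at 36.5, 55.1 and 241 at P4, and at 137, 141 and 114 at P14. In RA it stood at 11.5, 10.9 and 8.3 CPM at E14.5, at 77.4, 58.3 and 42.0 at P4, and at 137, 111 and 123 at P14. The libraries did not overlap between E14.5 and either later stage, in either tissue. As for Notch3, all P14 libraries were above all E14.5 libraries in both tissues, a pattern held by 6.02% of genes tested.

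From E14.5 to P14 Heyl rose by 2.39 ± 0.43 in SAN (adjusted p 0.00027) and by 3.48 ± 0.43 in RA (adjusted p 4.4e-06). From E14.5 to P4 it rose by 2.39 ± 0.43 in RA (adjusted p 0.00092). These 3 calls held under all 28 alternatives each. The SAN rise to P4 was 1.67 ± 0.43 (adjusted p 0.018), the only member of 10 called there, beside 8.24% of genes (3.85% higher). It was 0.87 without SAN P4 replicate 3 (adjusted p 0.0634), 1.56 without SAN E14.5 replicate 2 (0.0716), and lost its call with only the groups compared (adjusted p 0.1002). The difference between tissues in the E14.5 to P14 change was -1.09 ± 0.60 (adjusted p 0.43), and at P14 the tissues differed by 0.08 ± 0.43 (adjusted p 0.97). At E14.5 all SAN libraries were above all RA libraries, with a Heyl difference of 1.17 ± 0.43 (adjusted p 0.13). That difference passed under 4 of 28 alternatives, among them DESeq2 (1.31, adjusted p 0.0401).

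**Figure D4:**
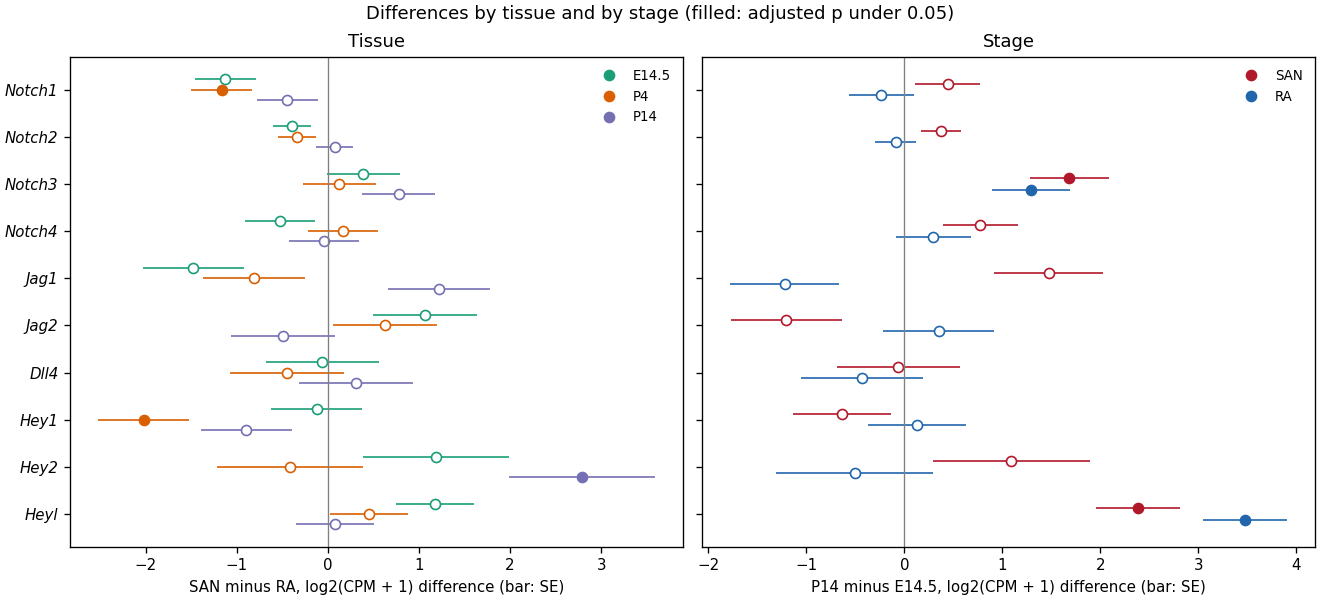
Differences on the log2(CPM + 1) scale with their SE for the 10 genes, SAN minus RA at each stage (left) and P14 minus E14.5 in each tissue (right), with filled points for an adjusted p under 0.05. Heyl and Notch3 are filled on the right in both tissues, and Jag1 lies on opposite sides of 0 without passing the test.

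Cell type markers moved with the Notch3 and Heyl rise in ways that differed between tissues. The smooth muscle and pericyte sum was 858 to 918 CPM in SAN at E14.5 and 3350 to 3977 at P14, while in RA it was 865 to 1054 and 1074 to 1415. The fibroblast sum (8 genes) was 2757 to 5354 CPM in SAN at E14.5 and 18691 to 21588 at P14, and 2300 to 2866 and 8373 to 10572 in RA. From E14.5 to P14, 5 of 10 smooth muscle and pericyte markers were called higher and 1 lower in SAN, against 3 and 2 in RA. The RA sum thus held opposite movements. In RA, Rgs5 went from 1.9 to 16.4 CPM at E14.5 to 459 to 703 at P14, and Myh11 from 0.7 to 2.1 to 24.7 to 68.8. Over the same stages Abcc9 went from 291 to 343 CPM to 92.4 to 106, and Cnn1 from 86.4 to 113 to 0.5 to 4.2. Of the 8 fibroblast markers 5 were called higher in SAN and 7 in RA. The part of cell content in the rise was not tested.

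Notch3 and Heyl had the highest correlation among the 45 pairs of members (r 0.89, 18 libraries, description only). The genes most like Notch3 were Synpo (r 0.93), Col5a1 (0.90) and Gpc6 (0.90), and those most like Heyl were Dst (0.95), Aoc3 (0.94) and Eln (0.93), which encodes elastin. Notch1 correlated at 0.63 with Jag1 and 0.62 with Hey1, and lowest with Jag2 (-0.34). Among the other members the closest genes were Zbtb1 for Notch2 (0.92), St3gal2 for Notch4 (0.74), Nkain4 for Jag1 (0.87), Hs6st1 for Jag2 (0.87) and Aldh18a1 for Dll4 (0.78).

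The make-up of the Hey family differed between stages, as a description with no test. Per kilobase, Hey1 made up 67.9% ± 12.5 (SD, n = 3) of the summed Hey level in SAN at E14.5 and 85.8% ± 0.95 in RA. At P14 it made up 26.8% ± 3.83 in SAN and 48.2% ± 3.35 in RA. Heyl went from 16.4% ± 4.37 to 53.9% ± 4.00 in SAN and from 7.88% ± 0.89 to 48.9% ± 2.56 in RA. The Hey2 share at P14 was 19.3% ± 3.06 in SAN and 2.89% ± 3.35 in RA. By reads with no length the P14 shares of Heyl were 68.1% in SAN and 64.1% in RA.

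From P4 to P14 no member was called in either tissue, where 5.59% of genes were in SAN and 6.76% in RA. At an unadjusted p under 0.05 there were 2 members in SAN and 1 in RA, edgeR called 0 in both tissues, and DESeq2 called 0 in SAN and 1 in RA. The SAN count rested on SAN P4 replicate 3. Without it, 4 members were called higher at P14: Notch3 (1.11, adjusted p 0.0357), Jag1 (2.04, 0.0158), Hey2 (3.15, 0.0147) and Heyl (1.52, 0.0029).

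Of 64 other pathway genes listed, 59 were in the table and 57 were tested in the first set. Over the 3 stages 4 of the 57 were called higher and 5 lower in SAN, beside 11.5% of all genes called. Furin, the protease that cuts newly made Notch receptors, was higher (1.29, adjusted p 1.4e-07), as were the arterial ligand Efnb2 (0.74), the ubiquitin ligase Mib1 that ligands need for signalling (0.48) and Dtx4 (0.86). The atrial growth factor Bmp10, which is also on the RA marker list, was lower (-7.57), with Fbxw7, the ligase that clears active Notch (-1.18), the venous receptor Ephb4 (-0.86) and the coactivator Kat2b (-0.54). The fifth called lower, the transcription factor Gata2 (-1.18), and Hes1 below were named after their values were seen. Hes1, a widely used Notch target, ran from 9.2 to 31.5 CPM in the 18 libraries and was not called in any contrast of the first set.

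From E14.5 to P14, 5 of the 57 pathway genes rose and 5 fell in SAN, and 6 rose and 9 fell in RA, beside 24.3% of all genes called in SAN and 22.7% in RA. In SAN the rises included Mfap5, a microfibril protein that binds Jag1 (5.37), Dtx4 (2.70) and Kat2b (0.97), and the falls included Hdac1 (-1.42), the Notch-related Dlk1 (-4.38) and Efnb2 (-1.15). In RA, Dlk1 fell by 6.15, the gamma-secretase subunit Ncstn by 1.19 and the receptor protease Adam10 by 0.97, while Mfap5 rose by 4.06 and Fbxw7 by 1.54. The pathway median was -0.02 in SAN and -0.38 in RA, against -0.18 and -0.37 over all genes.

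In the E12.5 set the targeted gene was read first. Isl1 stood at 67.4, 88.5, 47.8 and 83.2 CPM in the CreNeg libraries. It stood at 71.7 and 53.9 CPM in the libraries labelled CrePos replicates 1 and 3, and at 2.85 in replicate 2. Whole-gene counts may miss a deletion of part of the gene, and the labels do not say which part is floxed, so this level does not check the deletion in the 2 libraries used. The SAN marker sum was 1721 to 2065 CPM in CreNeg and 873 and 745 in the 2 libraries labelled CrePos.

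None of the 10 members was called between the 2 libraries labelled CrePos and the 4 CreNeg libraries, where 2.00% of the 14595 genes tested were. At an unadjusted p under 0.05 there was 1 member, and edgeR and DESeq2 both called 0. That member was Notch2, at 107, 65.0, 75.5 and 82.6 CPM in CreNeg and at 59.8 and 31.5 in the libraries labelled CrePos, without overlap. Its difference was -0.89 ± 0.29 (adjusted p 0.13), against a median of -0.42 over all genes and 0.02 over the members. Jag2 also did not overlap, at 4.3 to 6.8 CPM in CreNeg and 3.2 and 1.9 in the libraries labelled CrePos (-0.77 ± 0.46, adjusted p 0.33). The share of all genes that separate in this way between 4 and 2 libraries was not counted, so both separations are descriptions only.

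Notch1 stood at 26.6, 17.1, 16.9 and 27.8 CPM in CreNeg and at 23.2 and 10.5 in the libraries labelled CrePos (-0.44 ± 0.37). Hey1 stood at 35.9, 22.9, 17.3 and 53.3 CPM in CreNeg and at 34.8 and 29.1 in the libraries labelled CrePos (0.10 ± 0.38). Jag1, Notch3, Notch4, Dll4, Hey2 and Heyl overlapped between the groups as well, with differences from -0.21 (Notch3) to 0.68 (Hey2). Of 55 pathway genes tested, Furin (-1.76, adjusted p 0.0012) and Maml3, a Mastermind coactivator (-1.71, adjusted p 0.0375), were called lower and none higher, beside 2.00% of all genes called. The median difference was -0.57 over the pathway genes and -0.42 over all genes. Of all genes 193 were called lower and 99 higher, against 61 and 154 with equal upper quartiles and 29 and 97 with edgeR. Alternatives were read for the members only, so these 2 pathway calls were not retested.

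**Figure D5:**
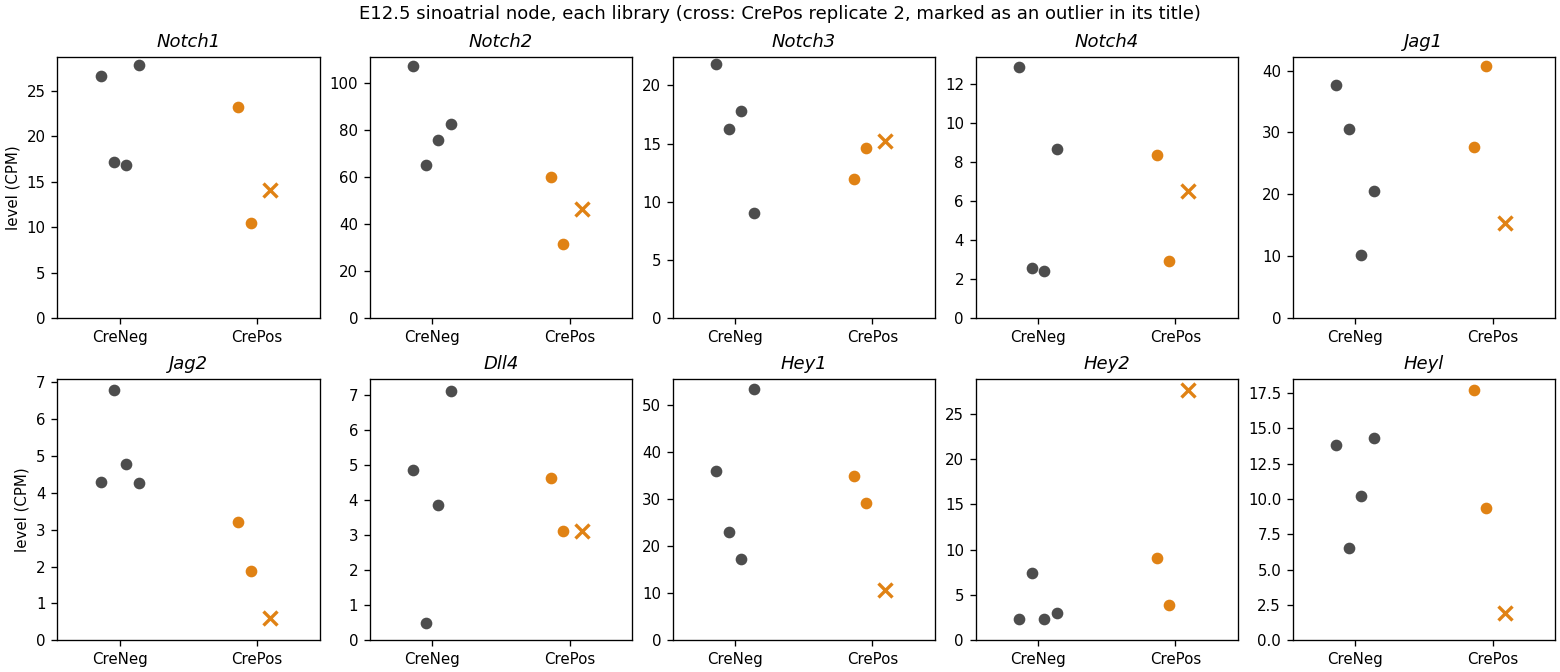
Level of each of the 10 genes in CPM (vertical axis, from 0) in the E12.5 SAN libraries, 4 CreNeg in grey and 2 labelled CrePos in orange, with CrePos replicate 2 as a cross. Of these 10 genes, Notch2 and Jag2 have CreNeg and CrePos libraries that do not overlap, without a call, and the cross stands high for Hey2.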

How the data were processed

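RNA was measured in 25 libraries of laser-captured mouse SAN and RA, amplified with a single primer isothermal method per the labels' protocols. The deposited values are a gene-level signal, for which the submitters' processing notes name TopHat2 2.0.6, edgeR and build mm8. The scaling is given as TMM in the name of the deposited table, and how reads were assigned to genes is not given in the sources used here. Every deposited value was a whole multiple of 1 step per library, within 0.1 of a read for values up to 10000 reads, so division by the step gave back the reads. No 2 libraries were identical. The closest replicates, 1 and 3 of RA P14, differed by 8.42 times counting error (chi-squared over its degrees of freedom). Every other pair within a group differed by 22.3 or more. Replicate 2 of RA P14 differed from those 2 by 35.5 and 38.9. Values were divided by 1 constant, 24.3, so that the mean library total is 1000000, and are called CPM. Floors of 3 reads cover counting error only.

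Genes reaching 1 CPM in 3 or more libraries (2 in the E12.5 set) were tested with limma 3.58.1 (trend) on log2(CPM + 1) in R 4.3.3, a scale that understates changes of low genes. The 18 libraries shared 1 fit of 6 group means, and 4 CreNeg against 2 CrePos libraries were fitted apart. Every adjusted p is Benjamini-Hochberg over all genes tested, from limma unless another tool is named. Alternatives were edgeR 4.0.16 (quasi-likelihood) and DESeq2 1.42.0 on recovered reads, other pseudocounts, scalings and filters, library weights, a replicate block, only the groups compared, and each library left out. Leaving out a library from a group outside a contrast keeps the limma difference as it was. It moves only the estimated spread and the genes tested, and such omissions are among the alternatives counted. The test script was tested on simulated data. Members were all named in every contrast. Of the pathway list, up to 4 called genes a direction by smallest p were eligible, and genes alike were the 3 highest Pearson r among tested genes with a mean of at least 5 CPM. Members and lists were chosen with earlier results of these data known. The length per gene is that of exons of protein-coding transcripts in GENCODE M21, in which 18205 symbols (87.2%) were found. Positions are from that build, not from the deposited table.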

Additional observations from a re-analysis of the deposited data

Results flagged for a closer look

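Hey2 in the CreNeg libraries had a sample far from the others. Replicate 2 stood at 7.4 CPM against 2.3, 2.4 and 3.0 in the others, a gap of 0.856 of the group's range, above Dixon's 95% critical value for 4 samples. Chance puts about 1 in 20 groups past that value. The CreNeg values of all 10 members were checked in this way, and only those of Hey2 went past it.

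Hey2 was also high in CrePos replicate 2, which took no part in the comparisons. It stood at 27.6 CPM there, against 2.3 to 7.4 in CreNeg and 9.1 and 3.9 in the other libraries labelled CrePos. The same library held 1032 CPM of the ventricular gene Myl2, against 0.25 to 6.4 in CreNeg, and its ventricular marker sum (5 genes) was 1917 CPM against 102 to 133. Their part in the Hey2 level was not tested.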

How the results depend on the processing

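No value of a member that passed the test changed sign under any of the 3230 alternative values. Of these 47 lost a call, 68 gained one, and 118 values without a call had the other sign. The calls for Notch1 over the 3 stages, for Notch3 in SAN from E14.5 to P14 and for Heyl in SAN to P14 and in RA to P4 and P14 held under every alternative run.

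Counts of members called moved as follows, and the causes were not tested. Over the 3 stages DESeq2 gave 4 (2 of them higher) and leaving out single libraries 1 to 4. At E14.5 the count of SAN against RA was 2 with DESeq2, 1 with equal upper quartiles or equal sarcomere levels, 3 with library weights or only the groups compared, and 0 to 2 with single libraries left out. At P4 it was 0 with edgeR or only the groups compared, 1 with no filter or equal sarcomere levels, and 0 to 3 with libraries left out (Jag1 added as lower without SAN P4 replicate 3). At P14 it was 0 with edgeR, DESeq2, pseudocount 0.25, no filter, equal upper quartiles and library weights, 2 with only the groups compared, and 0 to 2 with libraries left out. For SAN from E14.5 to P4 it was 2 with edgeR, DESeq2 or equal sarcomere levels, 3 with library weights, 0 with only the groups compared, and 0 to 2 with libraries left out. For SAN from P4 to P14 it was 0 to 4 with libraries left out. For SAN from E14.5 to P14 it was 4 with edgeR and DESeq2 (Notch2 and Notch4 added) and 2 to 4 with libraries left out. For RA it was 1 to 2 with libraries left out from E14.5 to P4. From E14.5 to P14 in RA it was 1 to 3 with libraries left out, and 3 with library weights or only the groups compared, the added member being Jag1 as lower. From P4 to P14 in RA it was 1 with DESeq2, library weights or only the groups compared and 0 to 1 with libraries left out. For the tissue difference in change it was 1 with equal sarcomere levels, library weights or only the groups compared, and 0 to 1 with libraries left out.

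With a replicate block the count was 0 for SAN against RA at P14, 2 for SAN from E14.5 to P4, 3 for SAN from E14.5 to P14 (Jag1 added, 1.47, adjusted p 0.0279), 1 for the tissue difference in change (Jag1) and 1 in the E12.5 set (Notch2, adjusted p 0.0296). Libraries with the same number did not deviate together (correlations -0.092 to 0.119, with 3 of 9 best matched to their own number, and -0.002 and -0.004 in the E12.5 set). The values thus gave no sign of pairing by number. In the E12.5 fit only replicates 1 and 3 had both a CreNeg and a CrePos library. The block difference of Notch2 (-1.03) rested on those libraries alone, and the other CreNeg libraries did not add to it. Noise between libraries could hide a shared animal, so whether the numbers pair samples is not known.

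Scaling moved the median of all genes. In the E12.5 set it was -0.42 as deposited, -0.03 with equal upper quartiles and -0.66 with equal sarcomere levels, and the genes called were 99 higher and 193 lower, 154 and 61, and 83 and 508. For RA from E14.5 to P14 it was -0.37, -0.23 and -0.69, with 1052 higher and 2936 lower, 1250 and 2010, and 730 and 5717. For SAN from E14.5 to P14 it was -0.18, -0.13 and -0.15, and edgeR called 1965 higher and 1706 lower where limma called 1712 and 2551.

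Depth limits the lowest members: SAN P4 replicate 1 held Hey2 at 0.37 CPM and RA P4 replicate 3 Jag2 at 0.86 CPM, near the floor of 3 reads.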
